A study of Mus musculus with 28 samples.

Results

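A group of 9 genes of retinoid (vitamin A) handling was followed through every library of the study: Stra6, Rbp7, Crabp2, Aldh1a1, Aldh1a3, Dhrs9, Cyp26b1, Rarg and Rxra. The genes were taken by name, by matching the Ensembl identifiers of the count tables to gene symbols in GENCODE M21, and they make up 9 of the 55536 genes counted. All 9 passed the filter on low counts, applied over all libraries at once, that left 17493 genes for testing.

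The libraries hold RNA of sorted cells of interfollicular epidermis (IFE), which lies between hair follicles, from mice labelled WT. Each mouse line joined a tdTomato reporter at the Rosa locus to 1 of 4 tamoxifen-inducible Cre recombinases, Slc1a3CreER, AspmCreER, Dlx1CreER or K14CreER (K14 is keratin 14). All groups share the tamoxifen course, given daily for 5 days from postnatal day 30 to 34, and the harvest 2 weeks afterwards, on postnatal day 49, when hair follicles rest (telogen). For each line and site, gate P6 holds the cells labelled as positive for the line (labelled cells, written Slc1a3+ and so on) and gate P5 the total IFE. From the back there were 3 libraries of Slc1a3+ cells, 3 of Aspm+ cells and 2 of K14+ cells, each with as many of total IFE. From the tail there were 2 libraries of each of the Slc1a3+, Aspm+ and Dlx1+ populations and as many of each total, which makes 28 libraries. What a labelled group holds depends on its Cre driver, among other things, and was not checked beyond the markers given below. The labels do not say whether libraries came from separate mice, so p-values here measure spread among the sequenced samples only, and site and any batch of handling cannot be told apart.

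Library totals ran from 7738262 to 37670589 counts. The number of genes with a count ran from 14436 to 22500, and the lowest belonged to 1 library, back Slc1a3 total replicate 4, with the next at 18375. The 8 basal keratinocyte markers checked were present in every group, with a summed level of 58770 to 120300 CPM (the count of a gene relative to its library's TMM-scaled total). Markers of fibroblasts summed to at most 39.92 CPM and those of adipocytes to at most 12.17 CPM. Endothelial and melanocyte markers reached 37.14 and 35.2 CPM, and Langerhans and T cell markers 101.2 CPM in back Slc1a3+ cells. Follicle markers were far higher, at up to 1253 CPM for the upper follicle and sebaceous list and 2241 CPM for bulge and germ. Postn weighed most in the latter list, with a mean of 738 CPM over the tail libraries. In bulk RNA, fewer cells of a type and less RNA per cell cannot be told apart.

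As background, epidermal cells take up retinol, hold it on small binding proteins, and oxidise it first to retinal and then to retinoic acid. Retinoic acid is carried to the nucleus, where it binds receptors of the RAR class paired with RXR partners, and it is cleared by cytochrome P450 enzymes of the Cyp26 family. The balance of synthesis and breakdown is well known to affect keratinocyte growth and differentiation and the sebaceous gland and hair follicle.

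The sequences just upstream of 4 genes that passed between skin sites are shown first, because retinoic acid receptors can bind direct repeats of a 6-base motif near their targets. RefSeq promoter windows (build GRCm38.p6, 250 bases before to 50 after each annotated start) were found for 7 of the 9 genes, as 13 windows, and those shown are the 4 with the larger site differences among these 7. Only bases upstream of annotated exons are printed, 5′ to 3′ on the strand of the gene, and capitals would mark the motif, spelled AGGTCA (the usual form) or, as accepted variants, AGTTCA and then GGGTCA and also GGTTCA on either strand. The Stra6 stretch lies at chr9:58128838-58129087 (plus strand), inside the GENCODE span of the gene, the Rbp7 stretch at chr4:149454979-149455218 (minus strand), the Aldh1a1 stretch at chr19:20492333-20492582 (plus strand) and the Cyp26b1 stretch at chr6:84593909-84594060 (minus strand).

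Stra6: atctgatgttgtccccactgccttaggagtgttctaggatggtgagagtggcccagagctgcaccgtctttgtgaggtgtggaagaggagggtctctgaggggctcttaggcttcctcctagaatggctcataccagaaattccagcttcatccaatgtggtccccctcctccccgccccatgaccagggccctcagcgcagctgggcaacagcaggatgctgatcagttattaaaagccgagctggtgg
Rbp7: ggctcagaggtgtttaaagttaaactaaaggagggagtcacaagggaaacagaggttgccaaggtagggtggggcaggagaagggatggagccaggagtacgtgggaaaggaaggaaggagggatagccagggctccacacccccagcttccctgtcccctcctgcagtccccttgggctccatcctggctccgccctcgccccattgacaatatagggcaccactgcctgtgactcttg
Aldh1a1: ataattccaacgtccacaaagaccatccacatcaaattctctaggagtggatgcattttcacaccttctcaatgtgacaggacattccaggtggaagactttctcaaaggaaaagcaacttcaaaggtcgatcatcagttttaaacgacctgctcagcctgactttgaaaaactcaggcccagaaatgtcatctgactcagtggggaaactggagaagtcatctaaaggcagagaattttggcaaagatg
Cyp26b1: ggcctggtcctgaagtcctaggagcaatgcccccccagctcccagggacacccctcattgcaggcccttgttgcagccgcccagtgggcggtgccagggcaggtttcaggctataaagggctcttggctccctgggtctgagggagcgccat

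None of the 4 printed stretches held this motif, which says only that these letters are not in them. The upstream bases of another Aldh1a1 window, not printed here, held 1 copy. Unprinted windows of Rxra, Rarg and Dhrs9 held 3, 1 and 1. None of the 13 windows held 2 copies as a direct repeat spaced by 5, 2 or 1 bases (DR5, DR2 and DR1), a pattern found in 0.097%, 0.268% and 0.222% of all 32851 windows, whereas a single copy occurs in 43.706% of them. Any of these repeats occurred in 0.688% of all genes with a window, so their absence sets the members little apart. For comparison, the same search found a DR5 in the windows of 2 genes that textbooks give as direct targets of retinoic acid receptors, Rarb and Cyp26a1. The only other match in 47 windows of 34 other retinoid genes was a DR1 in Bco1.

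Rarb, bases -53 to -37 from its start: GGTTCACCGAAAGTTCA
Cyp26a1, bases -32 to -16, opposite strand: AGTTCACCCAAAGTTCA

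Neither of these 2 genes was expressed to any extent here. Rarb had 0 counts in 14 of 16 back libraries and reached at most 0.187 CPM in tail, and Cyp26a1 had 0 counts in 14 of 16 back and 11 of 12 tail libraries.

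The first question was how the 9 genes differ between tail and back skin, which differ in scale-forming epidermis and hair density. In total IFE, 7 of the 9 genes passed at an adjusted p under 0.05, against 46.2% of all genes tested, so a pass by itself sets the group little apart. Stra6, Rbp7, Crabp2, Aldh1a3 and Cyp26b1 were higher in tail, a direction that 22.5% of all genes took, and Aldh1a1 and Rarg were lower, as were 23.7% of all genes. The median log2 change of the 9 genes was 2.18, beside -0.03 over all genes tested. The same 7 genes passed in the same directions in Slc1a3+ cells, where 40.6% of genes passed, and in Aspm+ cells, where 27.2% passed. In Slc1a3+ cells 19.0% of all genes were higher in tail and 21.6% lower, and in Aspm+ cells 12.7% and 14.5%. The members had medians of 2.29 and 2.83 beside -0.09 and -0.05 over all genes. The 9 genes were chosen with earlier results of these data known, so these medians describe them and are no independent test. All p-values are Benjamini-Hochberg adjusted over 17493 genes in edgeR's quasi-likelihood test.

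**Figure D1:**
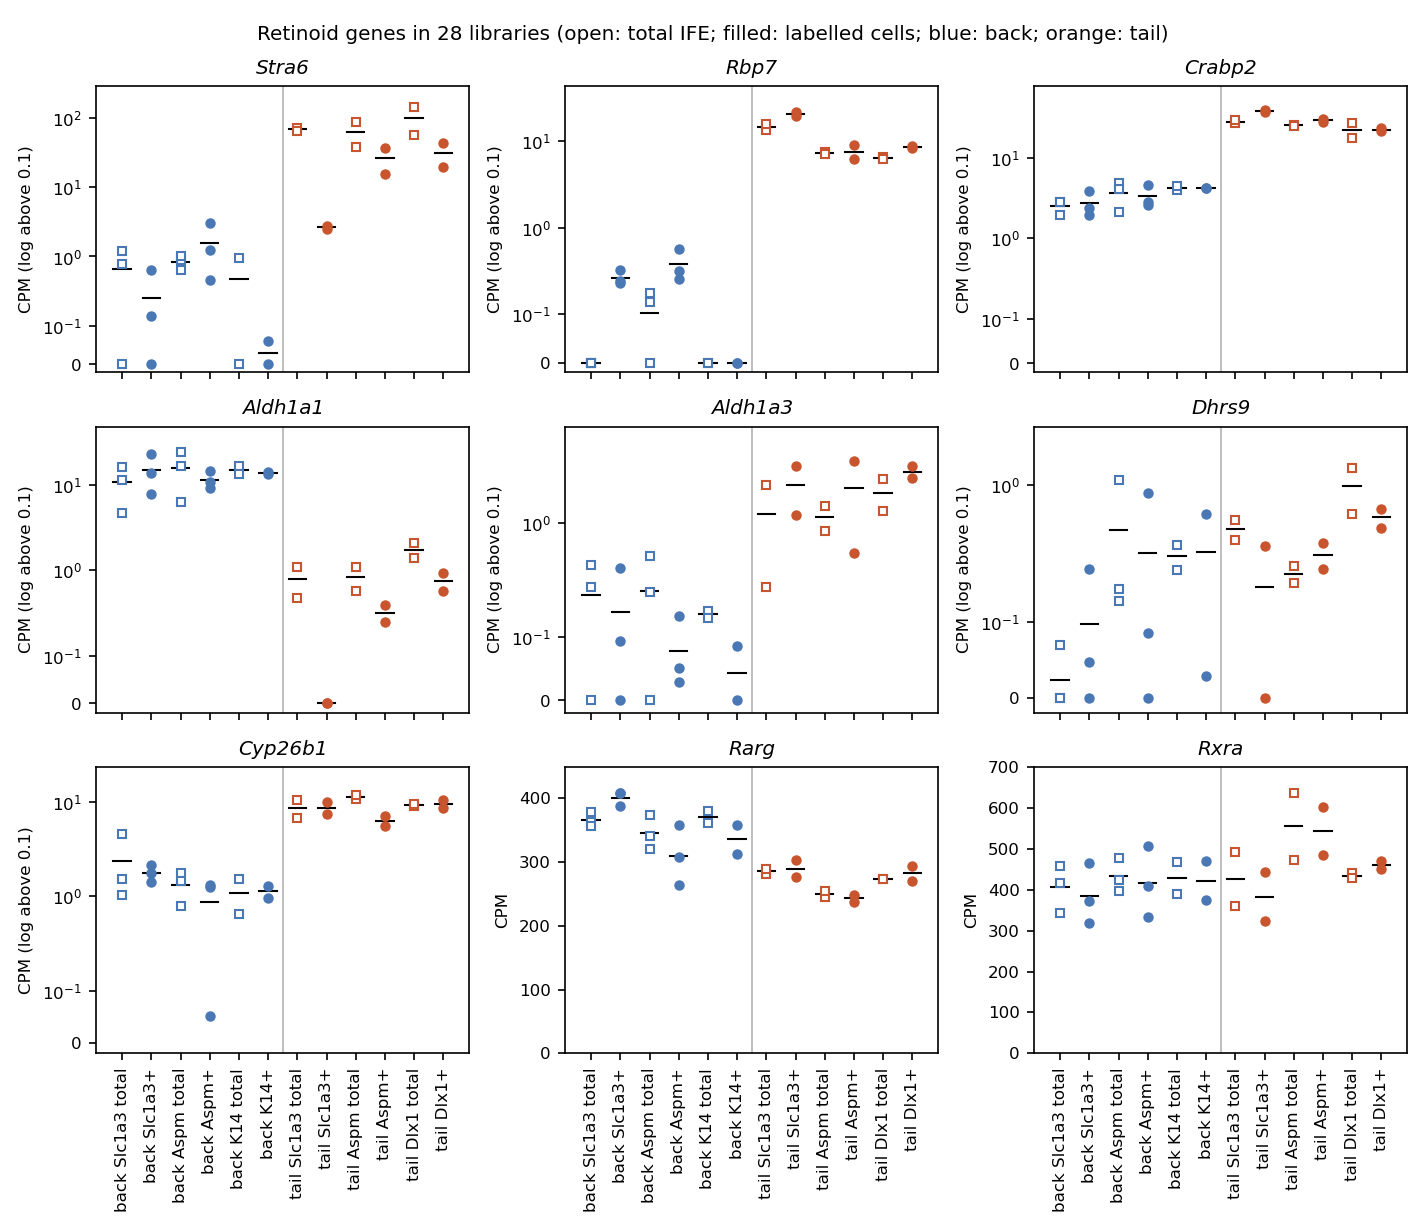
CPM of each of the 9 genes in all 28 libraries, 1 panel per gene, with groups along the horizontal axis (blue: back, orange: tail, open squares: total IFE, filled circles: labelled cells) and a black bar at each group mean. Most panels have a log axis above 0.1 CPM and a linear one below. Rbp7, Crabp2, Aldh1a1 and Cyp26b1 separate the 12 tail from the 16 back libraries completely, and Rxra overlaps throughout.

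Among the genes of uptake and binding, Stra6 encodes the cell-surface receptor that brings in retinol from its carrier in blood (GRCm38 chr9:58063788-58153996, plus strand). In the 16 back libraries it ran from 0 to 3.01 CPM with a median of 0.630, and 4 libraries had no count. In tail total IFE it stood at 71.3 and 63.6 CPM in the Slc1a3 line, 87.1 and 38.2 in the Aspm line and 142 and 56.2 in the Dlx1 line. Every tail total library was therefore far above every back library. The log2 difference in total IFE, taken over the Slc1a3 and Aspm lines that both sites have, was 6.30 (SE 0.55, adjusted p = 9.08e-09 in edgeR).

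Stra6 was also higher in tail in both labelled populations that the sites share. Aspm+ cells held 36.7 and 15.2 CPM in tail against 1.22, 0.456 and 3.01 in back, a log2 difference of 4.13 (SE 0.72, adjusted p = 1.79e-04 in edgeR). Slc1a3+ cells held 2.50 and 2.79 CPM in tail against 0.628, 0.140 and 0 in back, a log2 difference of 3.26 (SE 0.995, adjusted p = 0.0125). The tail Slc1a3+ libraries were thus above their back counterparts, yet within the range of back Aspm+ cells. This last call was lost without back Slc1a3+ replicate 2 (adjusted p = 0.0558) and without either tail Slc1a3+ library (adjusted p = 0.0536 and 0.0609), and with limma-voom (adjusted p = 0.107).

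Rbp7, a small cellular retinol-binding protein (chr4:149449687-149454978, minus strand), was the gene nearest to an on-off pattern between sites. In back skin it had no count in 8 of 16 libraries and at most 0.560 CPM, and all 4 K14 and all 3 Slc1a3 total libraries were at 0. In tail it ran from 6.16 to 21.5 CPM with a median of 8.49. No tail library came near a back library. In the Slc1a3 line, tail total IFE was at least 71.3-fold higher than back total IFE, taking a limit of 3 counts per library for the back group, whose counts were 0. Aspm+ cells, with counts at both sites, gave a log2 difference of 4.32 (SE 0.44, adjusted p = 3.56e-07 in edgeR), and Slc1a3+ cells gave 6.21 (SE 0.48, adjusted p = 5.91e-09).

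Crabp2 carries retinoic acid to its nuclear receptors (chr3:87948666-87953376, plus strand). It was present in all 28 libraries, from 1.92 to 4.88 CPM with a median of 3.31 in back and from 17.7 to 38.6 CPM with a median of 26.7 in tail. The sites did not overlap. Its log2 difference was 3.14 in total IFE (SE 0.22, adjusted p = 6.05e-11), 3.82 in Slc1a3+ cells and 3.14 in Aspm+ cells, the tightest of the 5 higher genes in its standard error.

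The genes of synthesis did not move together. Aldh1a1 and Aldh1a3 both encode retinal dehydrogenases, which make retinoic acid from retinal, and they differed between sites in opposite directions. Aldh1a1 (chr19:20492715-20643465, plus strand) ran from 4.72 to 24.2 CPM with a median of 13.6 in back and from 0 to 2.08 CPM with a median of 0.576 in tail. The lowest back library still held more than the highest tail library. Its log2 difference was -4.04 in total IFE (SE 0.45, adjusted p = 1.67e-07) and -5.12 in Aspm+ cells (SE 0.71, adjusted p = 1.01e-05). Both tail Slc1a3+ libraries had 0 counts, so that group was at least 84.4-fold lower than back Slc1a3+ cells, against a limit of 3 counts per library.

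Aldh1a3 (chr7:66390890-66427517, minus strand) was a gene of few reads. It ran from 0 to 0.510 CPM with a median of 0.119 in back and from 0.275 to 3.48 CPM with a median of 1.76 in tail. The lowest tail library, Slc1a3 total replicate 1, lay within the back range. The log2 difference was 2.18 in total IFE (SE 0.79, adjusted p = 0.0270), 3.61 in Slc1a3+ cells (adjusted p = 0.0167) and 4.69 in Aspm+ cells (adjusted p = 0.00667). The call in total IFE was lost without back Aspm total replicate 4 (adjusted p = 0.0521), tail Slc1a3 total replicate 2 (0.378) or tail Aspm total replicate 2 (0.0868). In Slc1a3+ cells it was lost without back replicate 2 or 4 or tail replicate 2 (adjusted p = 0.0664, 0.0618 and 0.152), and in Aspm+ cells without tail replicate 2 (0.219).

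Dhrs9, a dehydrogenase that can oxidise retinol to retinal (chr2:69380445-69404533, plus strand), was near the limit of detection. It ran from 0 to 1.08 CPM in back and from 0 to 1.34 CPM in tail, with medians of 0.113 and 0.383. The sites overlapped, and the log2 difference in total IFE of 1.36 (SE 1.09, adjusted p = 0.321) did not pass. A difference in Dhrs9 was not detectable at this depth.

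For breakdown, Cyp26b1 encodes the Cyp26 enzyme that was expressed in these cells (chr6:84571414-84593908, minus strand). It ran from 0.0509 to 4.60 CPM with a median of 1.38 in back and from 5.62 to 11.9 CPM with a median of 9.38 in tail, without overlap. The highest back value came from the library with few genes, and the others reached at most 2.14 CPM. The log2 difference was 2.53 in total IFE (SE 0.43, adjusted p = 4.06e-05), 2.29 in Slc1a3+ cells (adjusted p = 0.00400) and 2.83 in Aspm+ cells (adjusted p = 0.00133). The other Cyp26 genes, Cyp26a1 and Cyp26c1, were too low to be tested.

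The receptors were the most abundant of the 9 genes. Rarg, the retinoic acid receptor typical of epidermis (chr15:102234938-102257517, minus strand), ran from 264 to 409 CPM with a median of 360.0 in back and from 237 to 303 CPM with a median of 274 in tail. In total IFE all 8 back libraries, at 321 to 380 CPM, were above all 6 tail libraries, at 245 to 289 CPM. The log2 difference was -0.41 (SE 0.09, adjusted p = 5.01e-04 in edgeR), and it was -0.47 in Slc1a3+ cells (adjusted p = 0.00410) and -0.35 in Aspm+ cells (adjusted p = 0.0378). The call in Slc1a3+ cells was lost without tail replicate 1 (adjusted p = 0.0648). In Aspm+ cells it was lost without back replicate 1 or 2 (0.231 and 0.0698) or either tail library (0.286 and 0.158), and with DESeq2's size factors in edgeR (0.0639), no filter on low counts (0.217) and the groups compared alone (0.206).

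Rxra, the common partner receptor (chr2:27676440-27762957, plus strand), ran from 319 to 509 CPM in back and from 324 to 637 CPM in tail. The ranges overlapped almost fully. Its log2 difference was 0.22 in total IFE (SE 0.14, adjusted p = 0.228), -0.01 in Slc1a3+ cells (adjusted p = 0.978) and 0.38 in Aspm+ cells (adjusted p = 0.167), so it did not pass in any of the 3 comparisons.

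**Figure D2:**
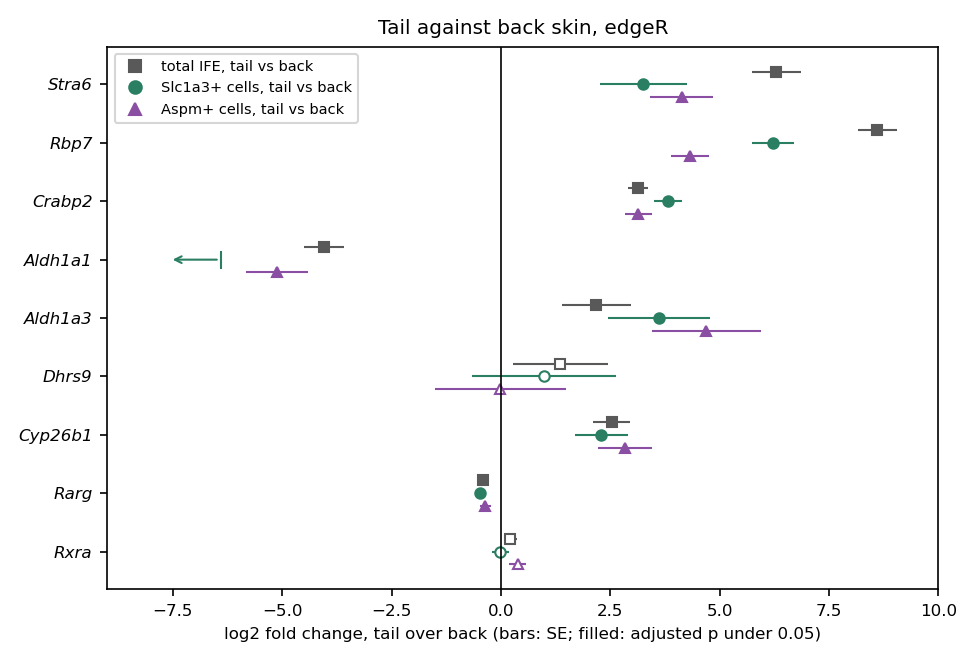
Log2 fold change of tail over back for each gene in total IFE, Slc1a3+ cells and Aspm+ cells, with bars for the standard error and filled symbols for an adjusted p under 0.05. The green arrow for Aldh1a1 starts at the limit of at least 84.4-fold for Slc1a3+ cells, whose tail libraries had 0 counts. The fitted Rbp7 value of total IFE rests partly on a back group at 0 and is no bound. Symbols for Stra6, Rbp7, Crabp2, Aldh1a3 and Cyp26b1 lie to the right of 0, those for Aldh1a1 and Rarg to the left.

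Scaled to exon length, the order of the genes changed with site. In back skin the mean level per kilobase was 83.4 CPM for Rarg and 75.9 for Rxra, then 2.75 for Aldh1a1 and 2.52 for Crabp2, with the other 5 at 0.275 (Cyp26b1) or less. In tail it was 85.7 for Rxra and 63.5 for Rarg, then 20.6 for Crabp2, 15.0 for Rbp7 and 8.27 for Stra6. Cyp26b1 followed at 1.69, and Aldh1a3, Aldh1a1 and Dhrs9 at 0.401, 0.1499 and 0.106 were last. These means cover both gates, and the order within a gate differs in places: in tail, Stra6 stood at 13.1 in total IFE and 3.41 in labelled cells, and Rbp7 at 13.1 and 16.9.

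Other marker sums also differed between sites, and their part in these differences was not tested. The 10 fibroblast markers summed to 1.111 to 15.18 CPM in back and 22.38 to 39.92 CPM in tail, with Mfap5, Lum or both at 0 in every group. Dcn made up most of this gap, with means of 0.850 CPM in back and 19.9 in tail. Col1a1 differed less, at 1.32 and 2.60 CPM, as did Col1a2 at 1.70 and 3.24 and Col3a1 at 1.46 and 2.77. Dpt was lower in tail, at 0.151 and 0.110 CPM. The 13 markers of follicle bulge and germ summed to 447.3 to 954.5 CPM in back total IFE and 1143 to 2241 CPM in tail total IFE, with none at 0 in all libraries of a group of totals. Postn weighed most in these sums, with means over both gates of 306 CPM in back and 738 CPM in tail. Beside 22.5% of all genes higher and 23.7% lower in tail total IFE, 10 of these 13 were higher and none lower, and of 12 upper follicle and sebaceous markers 10 were higher and 1, Lrig1, lower. Of 7 melanocyte markers tested 6 were higher, and of 7 Langerhans and T cell markers tested 6 were lower.

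The second question was how labelled cells differ from the total IFE of the same line. Few of the 9 genes passed here, and Stra6 in tail was the clearest. In tail Slc1a3+ cells 1 of the 9 genes passed, Stra6, against 0.514% of all genes. It was lower, as were 0.497% of all genes. In back Slc1a3+ cells 1 passed, Rbp7, against 0.109% of all genes. Rbp7 held at most 11 counts in any back library and met the filter on low counts only through its tail libraries. No member passed in back Aspm+ cells (0% of all genes), back K14+ cells (0.00572%), tail Aspm+ cells (0.00572%) or tail Dlx1+ cells (0%), by edgeR. At an unadjusted p under 0.05 these 4 comparisons held 1, 1, 0 and 1 of the 9 genes, against 2.18%, 2.15%, 2.42% and 2.55% of all genes. The median log2 change of the 9 genes lay between -0.16 and 0.11 over the 6 comparisons, beside 0 to 0.03 or, in tail Aspm+ cells, -0.01 over all genes.

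In tail the labelled library held less Stra6 than its total of the same number in 6 of 6 pairs. In the Slc1a3 line the totals held 71.3 and 63.6 CPM and the labelled cells 2.50 and 2.79, which makes the totals 28.5 and 22.8 times as high. In the Aspm line the totals were 2.37 and 2.52 times as high as the labelled cells, and in the Dlx1 line 3.31 and 2.94 times. In Slc1a3+ cells the log2 difference was -4.67 (SE 0.84, adjusted p = 0.00643 in edgeR). In Aspm+ and Dlx1+ cells the log2 differences of -1.27 and -1.68 did not pass (adjusted p = 1 for both).

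With the pair of labelled and total libraries as a block, Stra6 passed in tail Slc1a3+ cells (-4.67, adjusted p = 5.77e-06) and in tail Dlx1+ cells (-1.64, adjusted p = 0.0334), and not in tail Aspm+ cells (-1.29, adjusted p = 0.420). Without the library with few genes the blocked fit also called it in Aspm+ cells (adjusted p = 0.0313). The unblocked call in Slc1a3+ cells was lost without either Slc1a3+ library (adjusted p = 0.218 and 0.163).

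Over the 12 groups, the mean of Stra6 was highest in the tail totals, at 99.3 CPM in the Dlx1, 67.5 in the Slc1a3 and 62.7 in the Aspm line. Tail Dlx1+ cells at 31.1 CPM and Aspm+ cells at 25.95 CPM came next, and each group overlapped its neighbour in this order. Tail Slc1a3+ cells followed at 2.65 CPM, with both libraries below those of tail Aspm+ cells.

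In tail pairs the summed bulge and germ markers were lower in labelled cells, as Stra6 was, and their part in the result was not tested. The 13 bulge and germ markers summed to 288.4 and 348.4 CPM in tail Slc1a3+ cells against 1364 and 1287 in their totals. They summed to 918.7 and 730 CPM in tail Aspm+ cells against 1304 and 1143, and to 1304 and 1238 CPM in tail Dlx1+ cells against 2207 and 2241. None of the 13 was at 0 in all libraries of these groups except Grem1 in tail Aspm+ cells. Postn and Sostdc1 had the highest means of the 13 over the tail libraries, at 738 and 233 CPM. Cd34 and Lgr5 stood at 8.98 and 3.21 CPM there. The sums thus follow Postn most and are no even measure of the 13 markers. Between tail Slc1a3+ cells and their total 4 of the 13 passed, Sox9, Col6a1, Postn and Sostdc1, all lower. Lrig1, a marker of the upper follicle, stood at 9.66 and 11.5 CPM in tail Slc1a3+ cells and 79.2 and 87.4 in their totals. The sum of all 12 upper follicle and sebaceous markers differed less, at 833.8 and 885.9 CPM in tail Slc1a3+ cells against 1253 and 1205. It was 1059 and 1088 CPM in tail Aspm+ cells against 1128 and 1032, and 439 and 319.1 CPM in tail Dlx1+ cells against 1195 and 646.8. In back skin the bulge and germ sum was also lower in labelled cells. It was 238.6 to 477.4 CPM in Slc1a3+ cells against 498.9 to 635.1, with Stra6 at most 1.201 CPM in either. In back Aspm+ cells it was 545.2, 409.9 and 762 CPM against 787.3, 540.5 and 954.5. Stra6 there was 1.222, 0.456 and 3.005 CPM against 0.632, 0.892 and 1.003, so it rose in replicates 1 and 4. In back K14+ cells the sum was 252.6 and 294.6 CPM against 447.3 and 470.6, with Stra6 at 0 and 0.0613 CPM against 0.946 and 0.

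**Figure D3:**
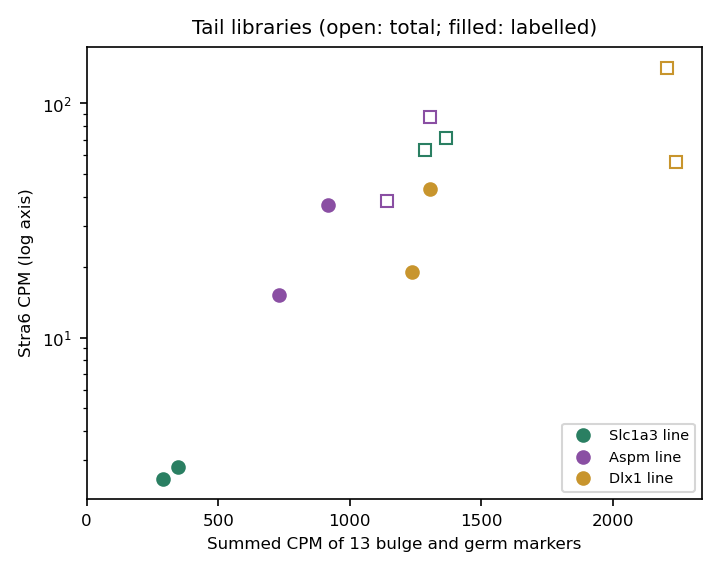
Stra6 in CPM (log axis) against the summed CPM of 13 markers of follicle bulge and germ in the 12 tail libraries (open squares: total IFE, filled circles: labelled cells, colours: lines). The 2 Slc1a3+ libraries, at 2.50 and 2.79 CPM, lie lowest on both axes, and the total libraries of the Dlx1 line lie farthest right. Postn weighs most in the sum.

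Aldh1a1 showed the same order within tail pairs at a far lower level. It was lower in the labelled library in 6 of 6 tail pairs, with 0 and 0 CPM in Slc1a3+ cells against 1.102 and 0.472 in their totals. Aspm+ cells held 0.391 and 0.249 CPM against 1.104 and 0.575, and Dlx1+ cells 0.926 and 0.578 CPM against 2.08 and 1.41. In the Slc1a3 line the labelled cells were at least 4.46-fold lower, a difference that missed the threshold (adjusted p = 0.0723 in edgeR) and passed with the pair as a block (adjusted p = 0.00346). In back skin Aldh1a1 was higher in the labelled library in 5 of 8 pairs and lower in 3.

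Rbp7 in back Slc1a3+ cells rested on few reads. The 3 labelled libraries held 3 to 7 counts each, or 0.228, 0.326 and 0.243 CPM, and the 3 totals held none. The labelled mean was 1.299 times a limit of 3 counts per total library, a ratio that leaves out the counting error of the labelled libraries. The adjusted p of 0.0434 in edgeR rose above the threshold without any 1 of the 6 libraries (0.0672 to 0.223) and with the pair as a block (0.101). In tail, Rbp7 was higher in labelled cells in 5 of 6 pairs, at 21.5 and 19.3 CPM in Slc1a3+ cells against 13.4 and 15.8 in their totals, a log2 difference of 0.48 (SE 0.42) that did not pass.

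**Figure D4:**
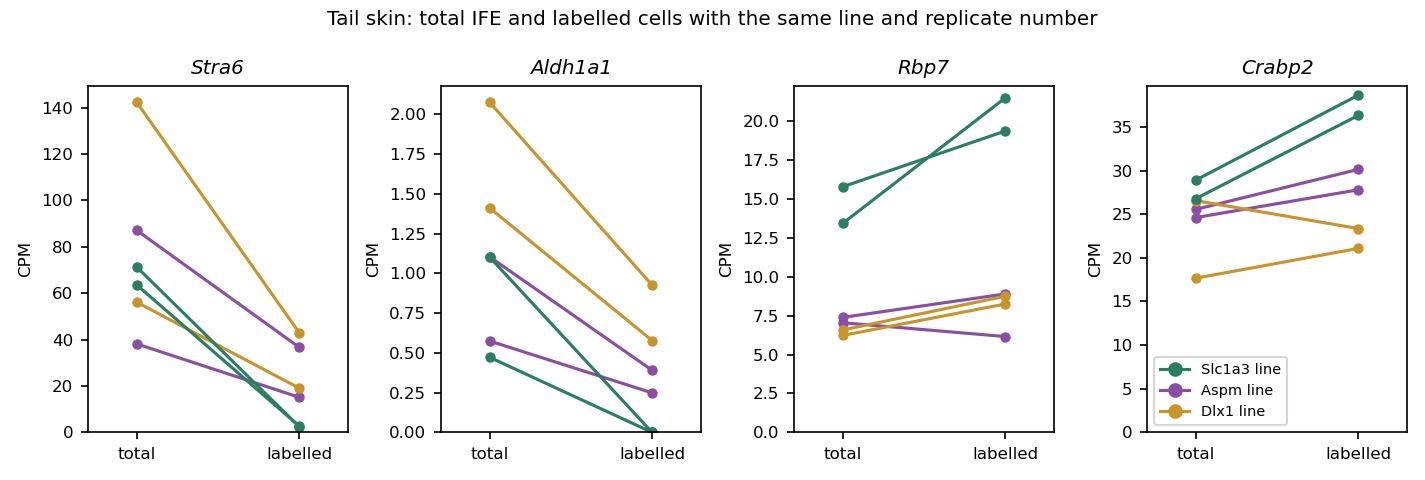
Stra6, Aldh1a1, Rbp7 and Crabp2 in CPM in the 6 pairs of tail libraries with the same line and number, total IFE on the left of each panel and labelled cells on the right. Lines for Stra6 and Aldh1a1 fall in 6 of 6 pairs, and those for Rbp7 and Crabp2 rise in 5 of 6.

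The other members did not pass between gates. Crabp2 was higher in labelled cells in 5 of 6 tail pairs and 4 of 8 back pairs, with log2 differences from -0.16 to 0.43. Rarg differed by -0.16 to 0.13 on the log2 scale, and Rxra by -0.16 to 0.09. Cyp26b1, which clears retinoic acid, differed by -0.82 to 0.04 and was lower in labelled cells in 4 of 6 tail and 5 of 8 back pairs.

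Whether the difference between labelled and total cells itself differs between sites was tested for the Slc1a3 and Aspm lines. None of the 9 genes passed, against 0.0915% of all genes in the Slc1a3 line and 0% in the Aspm line, and at an unadjusted p under 0.05 there were 3 and 1, against 4.32% and 2.00% of all genes. Stra6 had the interaction values -3.11 (SE 1.46) and -2.10 (SE 1.04). In the Slc1a3 line Aldh1a1 had an adjusted p of 0.190, which became 0.00611 with the pair as a block.

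The third question was how labelled cells of different lines compare within a site. In tail, 2 of the 9 genes passed between Slc1a3+ and Dlx1+ cells, against 5.47% of all genes, and both were lower in Slc1a3+ cells, as were 3.16% of all genes. Stra6 held 2.50 and 2.79 CPM against 43.1 and 19.1 CPM, a log2 difference of -3.55 (SE 0.81, adjusted p = 0.0157 in edgeR). Aldh1a1 was at 0 against 0.926 and 0.578 CPM, at least 4.27-fold lower (adjusted p = 0.0207). Both calls were lost without any 1 of the 4 libraries, at an adjusted p of 0.0606 to 0.209 for Stra6 and 0.0574 to 0.202 for Aldh1a1, and with limma-voom (0.0519 and 0.186).

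None of the 9 passed between tail Slc1a3+ and Aspm+ cells, where 0.492% of all genes did and 4 of the 9 had an unadjusted p under 0.05, against 11.6% of all genes. Stra6 gave -3.29 (SE 0.80, adjusted p = 0.0761 in edgeR). It passed with library totals (0.0406), no filter on low counts (2.36e-19), the groups alone (0.00130) and without the library with few genes (0.0469). These alternatives use the same counts of the groups compared, so a smaller p in them is no separate support. Rbp7, at 21.5 and 19.3 CPM against 8.89 and 6.16, gave 1.44 (SE 0.43, adjusted p = 0.171 in edgeR). In this comparison DESeq2 and limma-voom called Rbp7 (adjusted p = 0.00152 and 0.0165). The totals of these lines differed in Rbp7 in the same direction, at 13.4 and 15.8 against 7.39 and 7.04 CPM. Between tail Aspm+ and Dlx1+ cells none passed, against 0.0915% of all genes, and none had an unadjusted p under 0.05, against 5.62%.

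In back skin, Rbp7 passed for Slc1a3+ against K14+ cells (2.80% of all genes passed) and for Aspm+ against K14+ cells (0.200%). Both K14+ libraries had 0 counts, and the group means were 1.97 and 2.79 times a limit of 3 counts per K14+ library. Here too Rbp7 was tested only because its tail libraries met the filter on low counts. The calls were lost without either K14+ library. They were also lost without Slc1a3+ replicate 2 (adjusted p = 0.0627) and Aspm+ replicate 4 (adjusted p = 0.0513). None of the 9 passed between Slc1a3+ and Aspm+ cells, where 0.160% of all genes did, although Rarg and Stra6 had an unadjusted p under 0.05, as had 9.06% of all genes. Between the total IFE of different lines none passed in 6 comparisons by edgeR. Rbp7 in tail Slc1a3 against Dlx1 totals (log2 1.19, adjusted p = 0.142) passed with DESeq2, limma-voom and the groups alone (adjusted p = 0.00735, 0.00906 and 0.0363). In back, 0.0114% of all genes did between the Slc1a3 and Aspm lines, 7.76% between Slc1a3 and K14 and 0.0686% between Aspm and K14. In tail, it was 0.00572% between the Slc1a3 and Aspm lines, 1.92% between Slc1a3 and Dlx1 and 0.0343% between Aspm and Dlx1. The shares of 7.76% and 1.92%, from 1357 and 335 genes, rest on small groups. Far fewer genes passed without K14 total replicate 1 or 4, tail Slc1a3 total replicate 1 or tail Dlx1 total replicate 2. Each of these leaves 1 library in its group, so lost replication and an odd library cannot be told apart. These comparisons share groups with each other and with those of labelled against total cells.

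Other genes of the retinoid pathway were read from lists of 48 genes, of which 47 were found. Counts of these lists are for total IFE, where 22.5% of all genes were higher in tail and 23.7% lower, 46.2% in all. For uptake and binding, 2 of the 5 genes tested were higher in tail total IFE and none lower. Fabp5, which can carry retinoic acid, ran from 4.60 to 29.0 CPM in back and from 38.0 to 184 in tail, with a log2 difference of 2.93 (SE 0.23, adjusted p = 2.51e-10). The list median was 0.37, beside -0.03 over all genes.

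For storage and release, 3 of 4 were higher in tail and none lower (median 0.98). Lrat, which esterifies retinol for storage, was at most 0.710 CPM in back and 0.233 to 4.42 CPM in tail, with a log2 difference of 4.41 (SE 0.87, adjusted p = 2.36e-04). Retsat and Dgat1, the latter an acyltransferase that can also esterify retinol, differed by 1.07 and 0.58.

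For the interconversion of retinol and retinal, 7 of 14 were higher and 2 lower (median 0.62). Adh1, an alcohol dehydrogenase that oxidises retinol, ran from 8.04 to 14.9 CPM in back and from 78.2 to 168 in tail, a log2 difference of 3.73 (SE 0.16, adjusted p = 7.61e-15). Sdr16c6 and Rdh1, both short-chain dehydrogenases, gave 4.31 and 4.32, Rdh16 gave 3.51, and Sdr16c5, Rdh11 and Rdh13 gave 1.37, 0.87 and 0.74. Rdh5 and Dhrs3, the latter a reductase that returns retinal to retinol, were lower by -1.09 and -0.46. Rdh1 shares 3.17% of its 50-base stretches with Rdh9, which had almost no counts.

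For synthesis, 1 of 3 tested passed. Aldh1a7, a close relative of Aldh1a1, ran from 11.8 to 32.6 CPM in back and from 0.178 to 2.00 in tail, a log2 difference of -3.92 (SE 0.33, adjusted p = 1.32e-09). Aldh1a1 shares 3.06% of its 50-base stretches with Aldh1a7, so reads from these may have been counted for either gene. Aldh1a2 had 0 counts in 13 of 16 back and 10 of 12 tail libraries. Among receptors, Ppard at 0.73 and Rxrb at 0.35 were higher in tail and Rara did not pass, while Rarb and Rxrg were too low to be tested.

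Of genes known to respond to retinoic acid in other settings, 3 of 10 tested were higher in tail total IFE and 5 lower (median -0.11). Hbegf and Lrat were among the higher genes. Krt4 and Krt13, keratins of internal stratified epithelia, were lower by -6.73 and -2.95, Rarres1 by -2.53 and Dhrs3 by -0.46. Krt4 ran from 3.09 to 16.1 CPM in back and was at most 0.407 CPM in tail. This list therefore held members that passed in either direction.

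**Figure D5:**
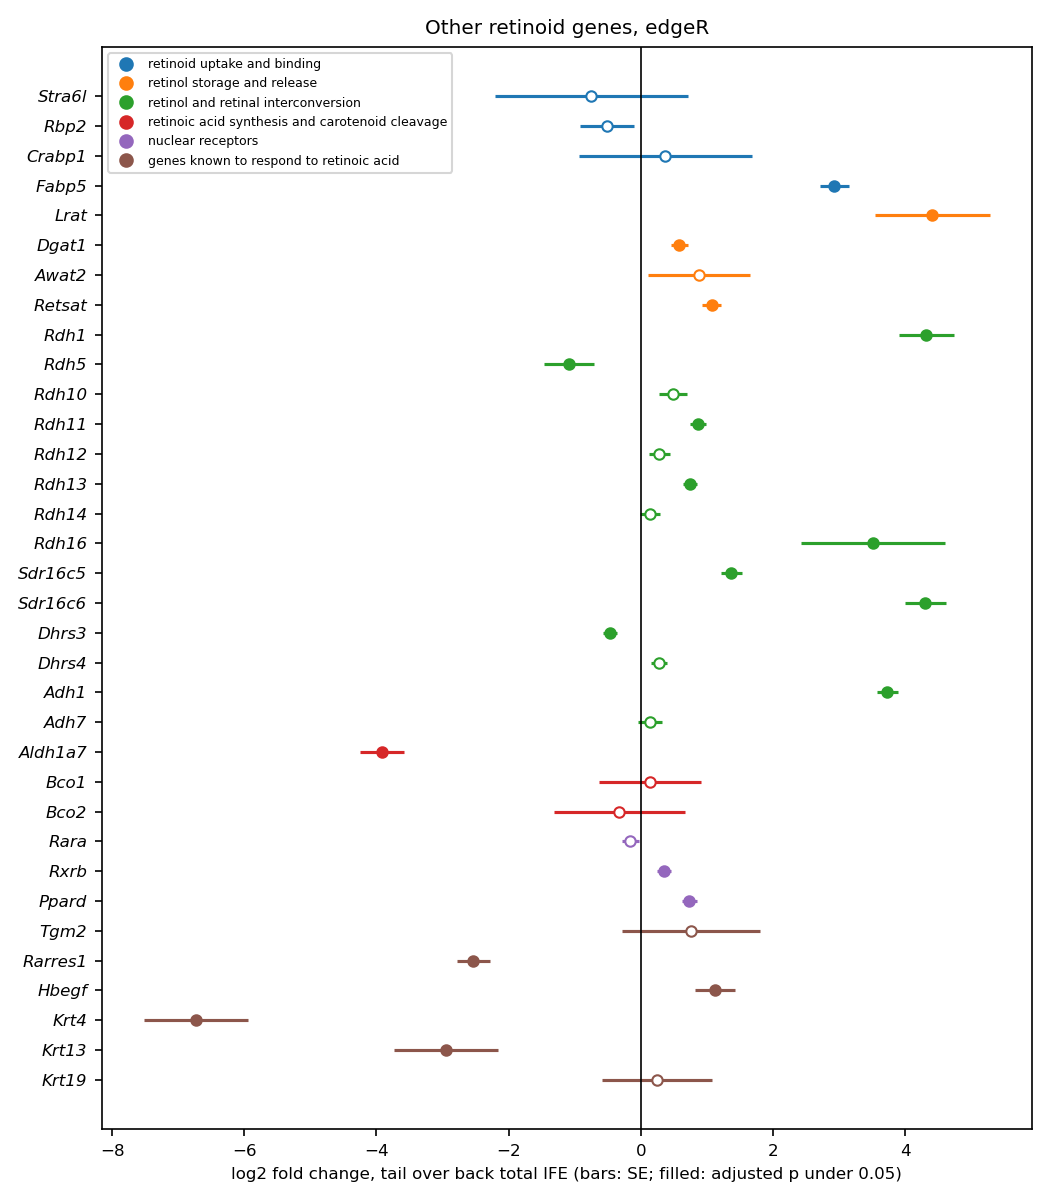
Log2 fold change of tail over back total IFE for most of the other retinoid genes that were tested, coloured by role, with bars for the standard error and filled circles for an adjusted p under 0.05. Genes of binding, storage and interconversion lie mostly right of 0, Aldh1a7 at -3.92 and Krt4 at -6.73 far to the left.

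Within tail, the one listed pathway gene that passed between labelled and total cells was Adh7, an alcohol dehydrogenase of stratified epithelia that oxidises retinol. It held 49.99 and 28.02 CPM in Slc1a3+ cells against 259 and 275 in their totals, below all other 26 libraries, which ran from 117 to 596 CPM. Its log2 difference was -2.78 (SE 0.31, adjusted p = 2.77e-05 in edgeR), and it was -2.49 against Aspm+ cells and -2.69 against Dlx1+ cells. The difference between labelled and total cells was more negative in tail than in back by 2.29 on the log2 scale (-2.29, SE 0.39, adjusted p = 0.00816). Stra6, Aldh1a1 and Adh7 were thus all lowest among tail groups in Slc1a3+ cells, which is a description of 3 genes that share those 2 libraries.

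Rarres1 separated the Dlx1 line in tail. Its 4 libraries held 0.184 to 0.487 CPM, against 4.10 to 10.7 CPM in the 8 other tail libraries. The log2 difference of Slc1a3+ over Dlx1+ cells was 4.07 (SE 0.47, adjusted p = 1.70e-05), with 4.59 between the totals. Aspm+ over Dlx1+ cells gave 4.70, with 4.37 between the totals. The totals of the lines thus differed in Rarres1 too. Fabp5 was also lower in the Dlx1 line, at 38.0 to 61.0 CPM against 117 to 184 in the other tail libraries.

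Across the 28 libraries, the genes most like each member in log2 CPM were sought among 10026 genes with a mean of at least 5 CPM, as a description in which the points share site, line and sorted pairs. Stra6 was most like Exoc3l2 (r = 0.957), Col5a2 (0.954) and Dram1 (0.945), and within the 12 tail libraries these gave 0.872, 0.894 and 0.862. Rbp7 was most like Them5, Degs1 and Susd4 (0.974, 0.971 and 0.969), and Crabp2 most like Krtdap, Serinc2 and Mfge8 (0.978, 0.973 and 0.973). Aldh1a1 was most like Il34, Apcdd1 and Ucp2 (0.974, 0.974 and 0.970), with 0.923, 0.930 and 0.917 within tail. For Cyp26b1 the nearest gene, Ckap4, gave 0.945 over all libraries and 0.131 within tail. Rarg was nearest to Relb (0.925), Rxra to Arhgap35 (0.829), Aldh1a3 to Fzd1 (0.902) and Dhrs9 to Gcdh (0.630).

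Likeness among the members also changed with the libraries used. Stra6 and Aldh1a1 gave r = -0.645 over all 28 libraries, where they differ between sites in opposite directions, and 0.952 over the 12 tail libraries. Rbp7 and Crabp2 gave 0.922 over all libraries and 0.740 within tail, but -0.291 within the 16 back libraries, where Rbp7 had few counts. Stra6 and Rbp7 gave 0.835 over all libraries and -0.614 within tail.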

How the data were processed

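The authors deposited raw counts per gene, 1 table per library. The submitters' processing notes name Trim Galore 0.6.0 and cutadapt for trimming, FastQC for quality, STAR 2.7.0e for alignment, the build GRCm38 (mm10), and DESeq2 1.26.0. The counting program, annotation and strand setting are not given in the sources used here. Per the labels' protocols, poly(A) RNA was made into non-directional libraries, so reads from opposite strands cannot be separated; no member overlapped the exons of another annotated gene. All 55536 identifiers matched GENCODE M21.

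One edgeR 4.0.16 quasi-likelihood model (robust, TMM scaling, filterByExpr with a minimum count of 10) was fitted to all 28 libraries with 1 mean per group (16 residual degrees of freedom, biological coefficient of variation 0.28) for 23 comparisons, with Benjamini-Hochberg adjustment over 17493 genes and a threshold of 0.05. CPM uses TMM-scaled library sizes, log2 CPM a prior count of 2. Where a group had 0 counts, the fold printed is a ratio of group means, taking 3 counts in each such library as a limit. It covers only the counting error of the group at 0, so it is no firm bound where the other group also had few counts. Alternatives used DESeq2 1.42.0 and limma 3.58.1 (voom) in R 4.3.3; promoters and figures used Python 3.11.15.

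The 9 members and the gene lists were chosen with earlier results of these data known. Named genes are the 9 members, listed pathway genes that passed a comparison or were the highest of their list or are given as too low to test, and, among 10026 genes with a mean of at least 5 CPM, the 3 most correlated with a member. Markers and motifs were listed likewise. Counts over a list cover all its genes tested, and the values of some listed genes are not reported here.

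Labelled and total libraries of the same line, site and number were taken as pairs, because their deviations from group means correlated at r = 0.18 to 0.689 in 14 of 14 pairs; the labels do not state this. With 2 libraries in a group the deviations mirror each other, so the 2 pairs of such a line (K14 and all tail lines) share 1 value and are not separate support. The back Slc1a3 pairs gave r = 0.18 to 0.216. Libraries that share a number, site and gate but not a line gave -0.117 to 0.343. The back Slc1a3 pairing is thus not set apart from a shared number. The fit with labelled and total pairs as a block has 8 residual degrees of freedom. Tested on simulated counts of 17493 genes for tail Slc1a3+ against total cells, the model recovered 4, 19, 36 and 48 of 50 genes changed by 1.5, 2, 4 and 8-fold, with 4 false among 111 called. The changed genes all had a mean over 1 CPM. Other differences between groups were left out, and libraries were drawn independently, without pairs. The recovery therefore does not carry over to genes of few reads such as Dhrs9, or to paired libraries.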

Additional observations from a re-analysis of the deposited data

Results flagged for a closer look

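Crabp2 in tail total IFE had 1 library apart from the others. Dlx1 line replicate 2 held 17.7 CPM, and the other 5 tail total libraries held 24.6 to 28.9 CPM. Its gap to the nearest library was 0.673 of the whole range on the log2 scale, above the critical value of 0.625 for 6 libraries. Of 18 sets of total libraries tested (9 genes at 2 sites) this was the 1 flagged, and chance flags about 1 in 20 groups.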

How the results depend on the processing

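The count of members passing between tail and back stayed within 1.5 times of 7 in total IFE (18 alternatives), Slc1a3+ cells (13) and Aspm+ cells (13). Other counts rest on 1 or 2 genes. For back Slc1a3+ against total it was 0 with DESeq2, limma-voom, the groups alone or the replicate block, and 0 without any 1 library. With the groups alone Rbp7 had too few counts for the filter, here and in both back comparisons with K14+ cells, so it was not tested there. Otherwise the cause was not tested here or below. For tail Slc1a3+ against total it was 2 with DESeq2, no low count filter or the replicate block, 0 to 1 without 1 library, and 2 with the replicate block and without the library of few genes. For tail Aspm+ and Dlx1+ against total it was 1 without the filter, 1 for Dlx1+ with the replicate block, and 1 for both with the replicate block and without the library of few genes together; without 1 library and no block each was 0. For back K14+ against total it was 1 without the filter. Between lines, back Slc1a3+ against Aspm+ gave 1 with no filter or DESeq2. Back Slc1a3+ against K14+ gave 2 with no filter, 0 with the groups alone and 0 to 1 without 1 library. Back Aspm+ against K14+ gave 2 with no filter or DESeq2, 0 with limma-voom or the groups alone and 0 to 1 without 1 library. Tail Slc1a3+ against Aspm+ gave 1 with library totals, DESeq2, limma-voom or the replicate block (there Stra6, adjusted p = 0.0286), 2 with no filter or the groups alone and 0 to 1 without 1 library. Tail Slc1a3+ against Dlx1+ gave 4 with the groups alone and 0 to 3 without 1 library. The Slc1a3 line interaction gave 2 without the filter and 1 with DESeq2 or the replicate block, and that of the Aspm line 1 without the filter. Numbers shared between lines or sites were not taken as pairs, though r was over 0.1 in 12 of 26 and 3 of 8. With these numbers as a replicate block in edgeR, total IFE between sites gave 6, losing Aldh1a3 (adjusted p = 0.0529). Tail totals of Slc1a3 against Dlx1 gave 1 (Rbp7) with DESeq2, limma-voom or the groups alone. Among the 44 results for single members recomputed, 1 changed direction, Stra6 in back K14+ cells, at 2.14 without back K14 total replicate 1 beside -4.54 (-6.71 to 2.14 without 1 library), with at most 1 count in a K14+ library. Library totals shifted the median of all genes by -0.20 in Slc1a3+ cells between sites and by -0.19 in tail Slc1a3+ against Dlx1+ cells. Counts over all genes moved too. Tail Slc1a3+ against total had 90 genes passing, with 197 by DESeq2, 50 by limma-voom, 276 without the filter and 261 with the replicate block. Back Slc1a3+ against total had 19, with 39, 9, 135 and 62, and tail Dlx1+ against total had 0, with 32, 30, 95 and 81. Back Aspm+ against total had 0, with 2 by DESeq2 and 27 without the filter. Tail Slc1a3+ against Dlx1+ had 957, with 1902 by DESeq2 and 1697 with the groups alone, and against Aspm+ 86, with 312 and 379. Back Slc1a3+ against K14+ had 489, with 1286 and 1623. Single libraries lowered several of these counts: to 29 and 33 for tail Slc1a3+ against total without Slc1a3+ replicate 1 or 2, to 94 and 67 against Dlx1+ without Slc1a3+ replicate 1 or Dlx1+ replicate 2, to 20 and 21 against Aspm+ without replicate 1 of Aspm+ or Slc1a3+, and to 7 and 10 for back Slc1a3+ against K14+ without K14+ replicate 1 or 4. The 3 comparisons between sites stayed within 1.5 times of 8085, 7104 and 4766 under other scalings, filters and tools, but Slc1a3+ cells fell to 4497 without tail replicate 1 and Aspm+ cells to 2861 and 2597 without tail replicate 1 or 2. Where a group held 2 libraries, leaving 1 out removed its replication, so such falls cannot mark that library as odd. Depth limits Dhrs9, Aldh1a3, back Rbp7 and tail Aldh1a1, and groups of 2 or 3 libraries limit all calls.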
